A study of Mus musculus with 24 samples.

Results

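DNA replication and S phase genes encode the machinery that loads, fires and completes replication forks and that supplies nucleotides and chromatin for the new strands. The 35 mouse genes described here were found by gene symbol in each of 4 expression tables, out of 24970 unique symbols, and all 35 were listed in every table. The tables hold 24 poly(A) RNA libraries from mice in which the microRNAs let-7a, let-7f and let-7d were deleted in alveolar type 2 (AT2) cells, the surfactant-making stem cells of the lung alveolus, and from their controls. Control mice had the genotype Sftpc-CreER/+; R26-tdT/+ and knockout mice had let7afd-/-;Sftpc-CreER/+; R26-tdT/+. Both genotypes carried the tamoxifen-inducible Cre recombinase under the AT2 gene Sftpc and the tdTomato reporter, and both were given tamoxifen, so Cre, reporter and drug were shared and the let-7 alleles set the groups apart. The sources used here give no ages.

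Sorted AT2 cells were taken 6 days after tamoxifen, as 3 control and 3 knockout libraries that each pooled 3 mice. Whole lungs were taken from 3 mice of each genotype at 6 days and from 4 mice of each genotype at 6 months of booster tamoxifen. AT2 organoids, grown in 3 dimensions for 14 days in the medium named AMM, came from 2 mice of each genotype at 6 days after tamoxifen. Values are TPM, a transcript abundance unit; they divide by transcript length and by the library's total, so levels can be set beside each other between genes. TPM keep no read numbers, and the depth behind each value is unknown. Whether the 3 AT2 pools of a genotype came from different mice is not stated, and p-values measure the spread between the libraries.

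As background, an origin is licensed in G1 when the origin recognition complex, Cdc6 and Cdt1 load the Mcm2 to Mcm7 helicase. The helicase is switched on in S phase when Cdc45 and the GINS complex join it, after which primase and the polymerases copy the strands around the sliding clamp Pcna. Many of these genes are transcribed in late G1 by E2F factors, which cyclin E and its kinase help to release from the retinoblastoma protein. Adult AT2 cells divide seldom in an uninjured lung, and let-7 is known as a microRNA family that restrains proliferation in many cell types. A microRNA lowers its targets by pairing its seed, bases 2 to 8, with sites that lie mostly in 3′ untranslated regions (UTRs).

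The mature forms of the deleted microRNAs are shown because their shared seed defines what a direct target site looks like. They are given 5′ to 3′ as in RefSeq on GRCm38.p6, with the seed in capitals.

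let-7a: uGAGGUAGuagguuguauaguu

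let-7f: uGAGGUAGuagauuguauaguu

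let-7d: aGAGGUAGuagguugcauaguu

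RefSeq places hairpins of these 3 names within chr13:48536012-48538272 on the minus strand (Mirlet7a-1, Mirlet7f-1 and Mirlet7d). The labels name the deletion only as let7afd. All 3 have the seed GAGGUAG. All hairpins of the let-7 family were listed at 0 TPM in all 24 libraries, which were made from poly(A) RNA, so the loss of the microRNAs could not be checked here.

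Few of the 35 genes held a let-7 site. In the longest annotated 3′ UTR of each gene (GENCODE M21, GRCm38), 2 of 35 members (5.7%) held a 7mer or 8mer match, against 16.8% of the 19884 genes of the tables with a UTR of at least 50 bases. The members' UTRs were shorter, with a median of 780 bases against 1145 bases. The windows around both matches are shown with the bases that pair with the seed, and the A beside them, in capitals.

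Rrm2, 8mer, 3′ UTR, chr12:24713351-24713380, plus strand: aagctgtgtagCTACCTCAgtcctgtttgc

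Gins1, 7mer, 3′ UTR, chr2:150931089-150931118, plus strand: ttcatccctagTACCTCAagaaacaagaca

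Rrm2 encodes the small, S phase limited subunit of ribonucleotide reductase, and Gins1 a subunit of the GINS complex. These matches are letters in a UTR and were not tested as sites.

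The promoters of the members more often held an E2F motif. Windows of 300 bases, 250 before and 50 after the annotated start, were read from RefSeq (GRCm38.p6) for 31 of the 35 genes, and Mcm4, Ccne2, Gins1 and Gins2 had no entry. The letters TTTCCCGC, TTTGGCGC, TTTGCCGC or TTTCGCGC, searched on both strands, were found in 13 of the 31 (41.9%), against 2.6% of 27025 genes. With only the first start of each gene, the shares were 35.5% and 2.3%. The NF-Y box CCAAT was found in 58.1% of members and 41.1% of genes, and the cell cycle homology letters TTTGAA or TTCGAA in 16.1% and 21.7%. In 5 genes (Mcm3, Mcm5, Mcm6, Mcm7 and Rfc3) a window held more than 1 match. The windows of Mcm5, Mcm6 and Rfc3 are shown, with matches in capitals, because a pair of their matches overlaps or nearly adjoins.

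Mcm6, chr1:128359656-128359955, minus strand: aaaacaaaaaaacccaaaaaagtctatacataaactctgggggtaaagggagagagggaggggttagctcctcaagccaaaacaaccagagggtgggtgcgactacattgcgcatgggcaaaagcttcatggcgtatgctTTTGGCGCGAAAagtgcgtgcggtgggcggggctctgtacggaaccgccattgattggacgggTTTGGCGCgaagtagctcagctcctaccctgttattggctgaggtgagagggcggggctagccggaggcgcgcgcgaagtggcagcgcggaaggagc

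Mcm5, chr8:75109259-75109558, plus strand: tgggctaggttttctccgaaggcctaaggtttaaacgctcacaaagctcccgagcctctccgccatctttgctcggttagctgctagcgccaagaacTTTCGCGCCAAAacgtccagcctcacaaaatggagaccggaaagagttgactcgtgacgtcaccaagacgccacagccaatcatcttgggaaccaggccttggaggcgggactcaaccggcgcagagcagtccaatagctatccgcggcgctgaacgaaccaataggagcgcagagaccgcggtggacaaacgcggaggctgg

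Rfc3, chr5:151651159-151651458, minus strand: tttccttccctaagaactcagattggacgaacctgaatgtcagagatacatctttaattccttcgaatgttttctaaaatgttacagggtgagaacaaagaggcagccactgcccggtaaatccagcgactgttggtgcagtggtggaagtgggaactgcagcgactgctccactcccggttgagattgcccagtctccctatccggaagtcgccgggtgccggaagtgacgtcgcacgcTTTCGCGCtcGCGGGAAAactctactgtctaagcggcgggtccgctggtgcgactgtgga

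In Mcm6 the matches begin 110, 106 and 47 bases before the start, and the first pair overlap on opposite strands. In Mcm5 an overlapping pair begins 153 and 149 bases before the start. In Rfc3 the first match begins 10 bases before the start. The Rrm2 promoter held no E2F match of these letters.

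**Figure D1:**
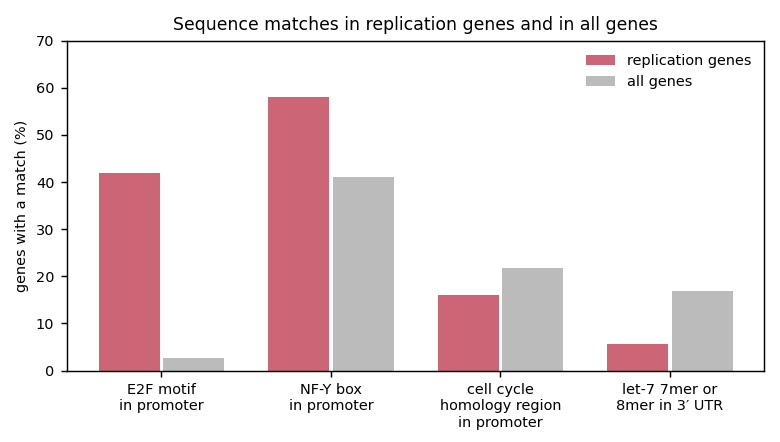
Percent of genes with a sequence match (y axis), as bars for the replication genes (31 with a promoter entry, 35 with a UTR) and for all genes searched. The E2F motif stands at 41.9% of the members and 2.6% of all genes, while let-7 matches stand at 5.7% and 16.8%.

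Tables were each fitted alone with limma on log2(TPM + 1), and adjusted p-values (Benjamini-Hochberg) run over all genes tested in a table, with 0.05 as the threshold. Each library summed to nearly the same total by construction. Correlation of log values between replicates of a group ranged from 0.957 to 0.994. It was lowest among the whole-lung knockouts at 6 days and between the 2 organoid controls (0.959, against 0.994 between the 2 organoid knockouts). Of the lungs at 6 days, knockout 3 had a median-ratio size factor of 0.765 against 1.03 to 1.10 in the other 5 lungs, and its 5 erythrocyte genes summed to 84804 TPM against 8786 to 45357 TPM. The libraries did not keep the strand, so reads of a member and of an overlapping gene on the other strand cannot be told apart. That concerns Gins2 (with Gse1), Chaf1a (Ubxn6), Ccne2 (Ints8), Rfc4 (Eif4a2), Mcm7 (Ap4m1 and Cops6), Tk1 (Afmid), Cdc45 (Ufd1), Orc6 (Vps35), Fen1 (Tmem258) and Lig1 (Zswim9). Pcna and Tyms have processed pseudogenes whose reads could be shared.

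In sorted AT2 cells the replication genes were higher in the knockout nearly throughout. Of the 35, all of which passed the filter of at least 1 TPM in at least 3 libraries, 29 rose and 0 fell, against 6.62% of all 12109 genes tested that rose and 1.22% that fell. All 35 differences were positive, from 0.26 to 1.23 on the log2 scale, with a median of 0.63 against 0.08 over all genes tested, of which 63.5% were positive. For 32 of the 35, every knockout library lay above every control library, against 25.4% of all genes tested. Unadjusted p was under 0.05 for 32 of the 35, against 20.5% of all genes. The 6 that did not pass were Orc6, Cdt1, Rpa2, Dut, Chaf1b and Ccne1, with adjusted p from 0.056 to 0.275. Summed over the 35 genes, the controls held 912, 957 and 915 TPM and the knockouts 1640, 1301 and 1371 TPM, a ratio of means of 1.55. In bulk RNA such as this, more cells that transcribe a gene and more of its RNA per cell cannot be told apart.

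The libraries carried the markers of the labelled cell type: 8 AT2 genes, among them Sftpc and Sftpb, summed to 235313 to 250659 TPM in the controls and 148565 to 219926 TPM in the knockouts, and none of the 8 passed the test. Markers of other cells moved with the genotype. The 7 pan-leukocyte markers summed to 14.5 to 44.8 TPM in the controls and 65.9 to 112.3 TPM in the knockouts, and 3 of the 7 rose. The 13 alveolar macrophage markers summed to 40.0 to 75.6 TPM and 163.0 to 305 TPM, and 5 of the 10 tested rose, among them Chil3. The defining leukocyte gene Ptprc was at 2.20 ± 1.18 TPM in the controls and 6.52 ± 3.08 TPM in the knockouts (SD, n = 3), and was at 0 in neither. The 5 erythrocyte markers summed to 81.3 to 160.0 TPM and 285 to 481 TPM, with 2 of the 3 tested higher, and of the 7 AT1 markers 1 rose and 2 fell. The part of these cells in the replication gene results was not tested.

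Among the origin licensing genes, Orc1, the ATPase subunit of the origin recognition complex, and the loader Cdc6 rose, by 0.77 and 0.81 on the log2 scale. Orc6 and Cdt1 had differences of 0.42 and 0.67 and did not pass (adjusted p = 0.0736 and 0.056). All 7 Mcm genes rose, from 0.46 for Mcm4 to 0.78 for Mcm3. Mcm3 was at 26.2, 27.4 and 25.3 TPM in the controls and 54.3, 39.3 and 44.9 TPM in the knockouts, a difference of 0.78 (SE 0.12, adjusted p = 0.012). Mcm5 was at 28.1, 30.4 and 30.8 TPM in the controls and 57.0, 46.0 and 46.6 TPM in the knockouts, a difference of 0.72 (SE 0.10, adjusted p = 0.009). Mcm2 was at 36.5, 36.1 and 36.1 TPM in the controls and 60.7, 46.4 and 50.7 TPM in the knockouts, a difference of 0.52 (SE 0.10, adjusted p = 0.0289). For each of these 3 helicase subunits the lowest knockout was above the highest control, and knockout 1 was the highest library.

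The helicase partners rose together, 3 of 3. Gins2, a GINS subunit (chr8:120578633-120589304), was at 15.0, 13.7 and 12.4 TPM in the controls and 29.3, 25.5 and 24.8 TPM in the knockouts, a difference of 0.91 (SE 0.10, adjusted p = 0.00491). Cdc45, which joins the helicase as origins fire, was at 10.7, 9.96 and 10.3 TPM in the controls and 19.2, 15.9 and 18.3 TPM in the knockouts, a difference of 0.73 (SE 0.10, adjusted p = 0.00778). Neither gene overlapped between genotypes, and Gins1 rose by 0.90. All 3 polymerase genes rose, Pola1 by 0.55, Pold1 by 0.45 and Prim1 by 0.92. Prim1 (chr10:128015168-128030037), the catalytic primase subunit that starts each new strand, was at 20.7, 18.2 and 19.2 TPM in the controls and 38.4, 34.2 and 39.5 TPM in the knockouts, with an adjusted p of 0.00312 and an SE of 0.09. The 3 knockouts lay close together, well clear of the 3 controls.

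At the clamp and the lagging strand, 5 of 6 genes rose. The largest difference of all 35 was that of Rfc4 (chr16:23113943-23127737), a subunit of the loader that opens the Pcna ring. It was at 17.9, 18.5 and 21.5 TPM in the controls and 49.2, 39.3 and 51.6 TPM in the knockouts, a difference of 1.23 (SE 0.12, adjusted p = 0.00312). Rfc3, another loader subunit, was at 23.7, 22.9 and 24.1 TPM in the controls and 39.6, 37.6 and 33.0 TPM in the knockouts, a difference of 0.62 (SE 0.09, adjusted p = 0.0101). In both loader genes all knockouts were above all controls. Pcna (chr2:132249162-132253314), the clamp, had the highest level of the 35 genes in every table and was at 282, 307 and 289.7 TPM in the controls and 467, 366 and 376 TPM in the knockouts. Its difference of 0.45 (SE 0.11, adjusted p = 0.0472) was among the smallest of those that passed. The call was lost without any 1 control or without knockout 3, with adjusted p from 0.0974 to 0.132. Of 9 other settings of the fit, it held under 4, with adjusted p up to 0.0876. Fen1, the flap nuclease, rose by 0.65, and Lig1, the ligase that seals Okazaki fragments, by 0.57. Rpa2, a subunit of the single-strand binding complex, had a difference of 0.29, and its groups overlapped.

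Of the nucleotide supply genes, 4 of 5 rose. Rrm2 (chr12:24708241-24714146), which holds the let-7 8mer shown above, was at 38.9, 33.5 and 35.5 TPM in the controls and 78.1, 70.8 and 67.8 TPM in the knockouts, a difference of 0.99 (SE 0.09, adjusted p = 0.00312). Tk1, thymidine kinase, was at 22.6, 23.1 and 20.7 TPM in the controls and 53.6, 39.0 and 37.4 TPM in the knockouts, a difference of 0.92 (SE 0.14, adjusted p = 0.011). Rrm1, the large reductase subunit, rose by 0.67 and thymidylate synthase (Tyms) by 0.55, while Dut, which clears dUTP, had a difference of 0.26. The 3 knockouts of Rrm2 and of Tk1 were all above the controls, and those of Dut overlapped them. Uhrf1, which guides maintenance methylation to new DNA, was at 16.3, 16.0 and 16.2 TPM in the controls and 39.4, 26.2 and 28.9 TPM in the knockouts, a difference of 0.90 (SE 0.14, adjusted p = 0.0137). The remodeller Hells and the histone chaperone subunit Chaf1a rose by 0.72 and 0.61, and Chaf1b had a difference of 0.32 with overlapping groups.

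Of the G1/S regulators, the cyclin gene Ccne2 was at 9.60, 7.36 and 7.41 TPM in the controls and 12.5, 13.5 and 13.1 TPM in the knockouts, a difference of 0.63 (SE 0.12, adjusted p = 0.0236). E2f1 (chr2:154559407-154569892), an activating E2F factor, was at 8.44, 9.60 and 9.98 TPM in the controls and 15.8, 13.6 and 12.7 TPM in the knockouts, a difference of 0.54 (SE 0.11, adjusted p = 0.0326). Ccne1 (chr7:38097984-38107534) was at 7.56, 6.79 and 6.76 TPM in the controls and 13.6, 7.85 and 10.9 TPM in the knockouts, a difference of 0.52 (SE 0.17, adjusted p = 0.104). The Ccne1 groups did not overlap, although the lowest knockout, 7.85 TPM, stood just above the highest control. The 13 members with an E2F motif in the promoter had a median difference of 0.67, the 18 without one 0.58 and the 4 with no entry 0.77, and the ranges of the first and second overlapped. In lungs the order was the other way, with medians of 0.42 with a motif and 0.56 without at 6 days. At 6 months they were 0.14 and 0.20, and in organoids 0.87 and 0.79. No difference between these classes was tested.

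The AT2 count moved with the library left out, as did the share of all genes that rose. It was 9 without control 2 (1.51% of all genes), 14 without control 1 (2.58%), 13 without control 3 (2.36%) and 11 without knockout 3 (1.76%), and it was 23 without knockout 1 (3.72%) and 31 without knockout 2 (7.71%). Of all 950 genes called, 84.4% rose. With median-ratio scaling, under which 23 members and 3.47% of all genes tested rose, 67.3% of the genes called did. Cdc45, Gins2, Mcm5, Prim1, Rfc4, Rrm2 and Tk1 passed in all of these fits and under every other setting run, and all 35 differences were positive in all of them. Of the 29 calls, 16 held under every other setting with all libraries kept. E2f1 held in 1 of the 6 fits without 1 library and under 5 of 9 other settings, and Ccne2 in 3 and under 7.

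**Figure D2:**
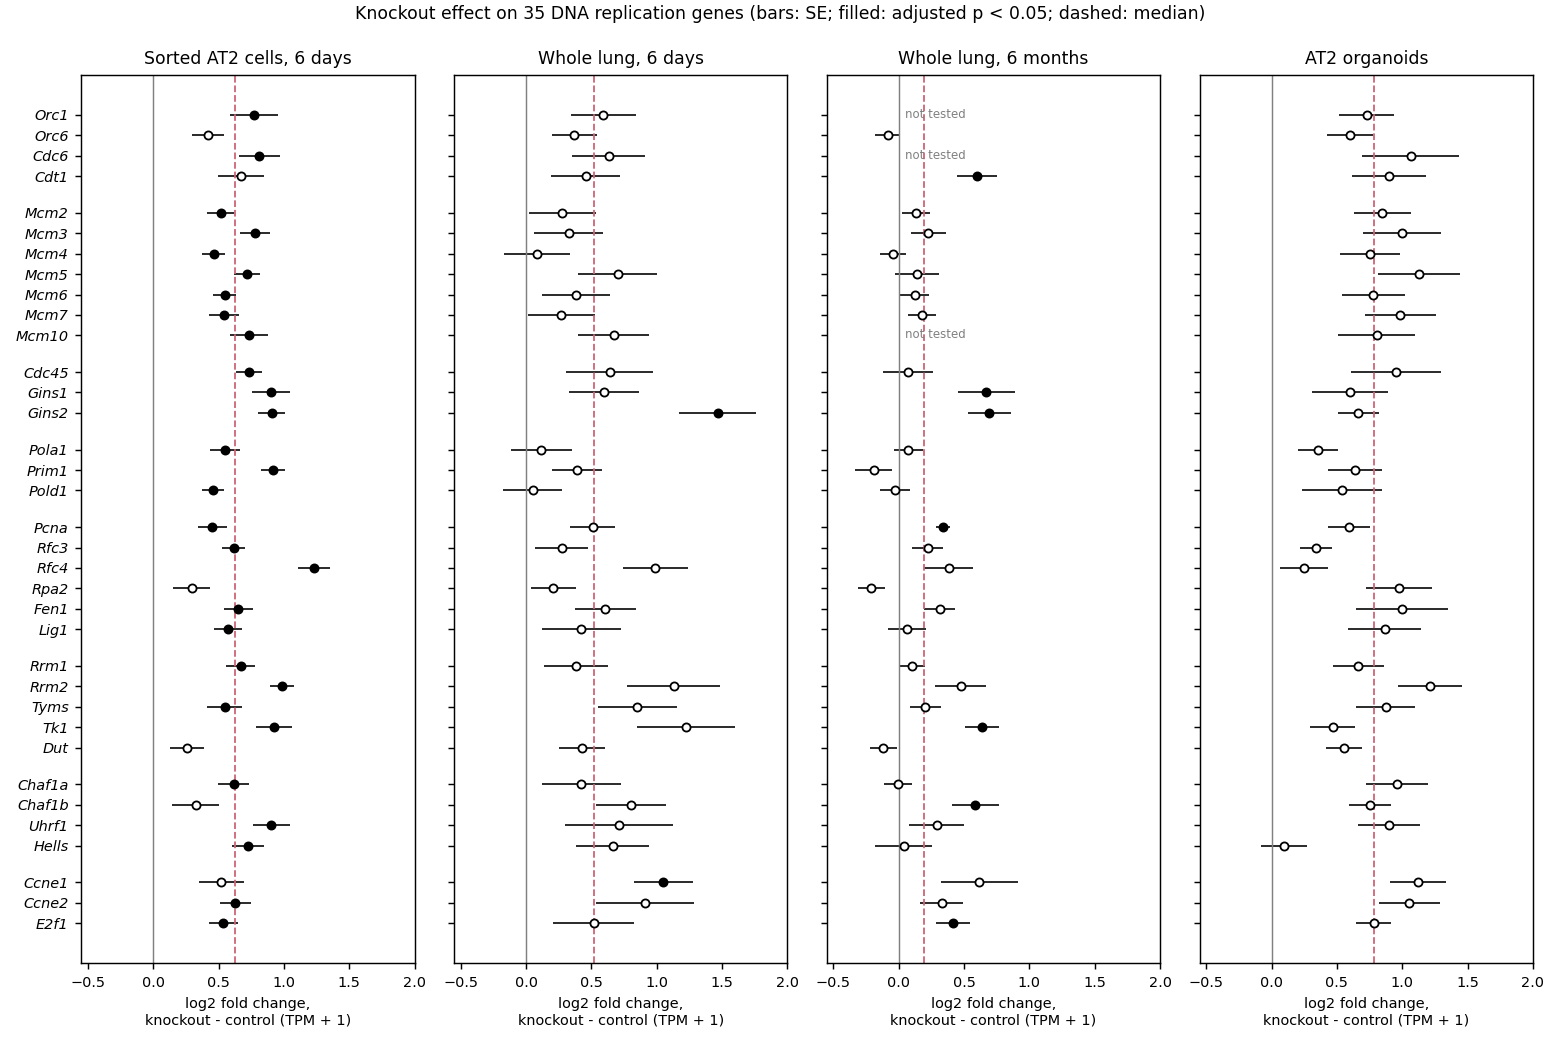
Log2 fold change of each of the 35 genes (x axis, on log2(TPM + 1), knockout minus control) in the 4 kinds of sample, in rows ordered by role, with bars for the SE, filled points for adjusted p under 0.05 and the members' median as a dashed line. AT2 cells show 29 filled points, lungs at 6 days 2, lungs at 6 months 7 and organoids 0, while the medians are 0.63, 0.52, 0.19 and 0.78.

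Beyond the 35, other genes of the cell cycle were read from lists, to be set against the 6.62% of all genes that rose in AT2 cells. Of 49 other replication genes, 16 rose and 0 fell in AT2 cells, with 48 of 49 positive and a median of 0.44. They included Dbf4, which activates the Cdc7 kinase, at 0.70 (adjusted p = 0.00735), and Timeless, a fork protection factor, at 0.72 (adjusted p = 0.00798). Of 23 E2F, retinoblastoma and S phase regulators, 6 rose and 0 fell, with Ccna2, the S phase cyclin A, at 1.08 (adjusted p = 0.00317) and the licensing inhibitor Gmnn at 0.71 (adjusted p = 0.00735). Of 25 mitosis genes, 24 rose, with a median of 0.88, and Cdc20, the activator of the anaphase complex, was at 1.13 (adjusted p = 0.00146). The proliferation marker Mki67 rose by 0.88 and Top2a by 0.81, while Cdkn1a, a cyclin kinase inhibitor, had a difference of 0.27 (adjusted p = 0.325).

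In whole lungs at 6 days, 2 of the 35 genes, Gins2 and Ccne1, rose and 0 fell, against 3.16% of the 14154 genes tested that rose and 3.79% that fell, so the share that passed was near that of all genes. All 35 passed the filter. The differences were nonetheless positive for all 35, from 0.05 to 1.47 with a median of 0.52, where all genes tested had a median of -0.14 and 35.8% were positive. Unadjusted p was under 0.05 for 15 of the 35, against 9.85% of all genes, and 13 did not overlap between genotypes, against 12.5%. The sums over the 35 genes were 541, 780 and 480 TPM in the controls and 788, 1073 and 772 TPM in the knockouts, a ratio of means of 1.46, with control 2 above knockout 3. With median-ratio scaling the median of all genes moved to 0.0012 and that of the members to 0.67. Under it 4 members rose, beside 6.68% of all genes. Mcm4 and Pold1 turned to small negative values without control 3, and these and Pola1 without knockout 2.

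Gins2 was at 6.47, 12.3 and 4.85 TPM in the controls and 19.9, 24.5 and 22.0 TPM in the knockouts, a difference of 1.47 (SE 0.29, adjusted p = 0.0262). Ccne1 was at 2.60, 4.40 and 3.04 TPM in the controls and 6.52, 9.64 and 7.71 TPM in the knockouts, a difference of 1.05 (SE 0.22, adjusted p = 0.0321). In both genes the knockouts were all above the controls, and control 2 was the highest control. Both fell short of the threshold without control 1, control 3 or knockout 2, with 0 members called in each of these fits. In the same fits 0.311%, 0.544% and 1.28% of all genes rose. Rfc4 was at 10.6, 14.3 and 8.96 TPM in the controls and 16.9, 25.4 and 28.3 TPM in the knockouts, a difference of 0.99 (SE 0.25, adjusted p = 0.0515). Tk1 was at 15.0, 24.9 and 7.86 TPM in the controls and 28.7, 48.3 and 30.9 TPM in the knockouts, a difference of 1.22 (SE 0.38, adjusted p = 0.093). Control 2 of Tk1 came within a few TPM of knockout 1, without overlap. Rrm2 was at 18.3, 33.3 and 12.2 TPM in the controls and 33.3, 59.6 and 42.9 TPM in the knockouts, a difference of 1.13 (SE 0.35, adjusted p = 0.0961), and control 2 matched knockout 1.

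Pcna was at 153, 205 and 141 TPM in the controls and 211, 262 and 231 TPM in the knockouts, a difference of 0.51 (SE 0.17, adjusted p = 0.118), and its groups did not overlap. Mcm2 was at 16.1, 24.3 and 14.8 TPM in the controls and 20.9, 29.9 and 17.1 TPM in the knockouts, a difference of 0.28 (SE 0.26, adjusted p = 0.514). Ccne2 was at 4.04, 7.50 and 2.74 TPM in the controls and 6.49, 15.1 and 7.84 TPM in the knockouts, a difference of 0.91 (SE 0.37, adjusted p = 0.175). Control 2 lay inside the knockout range for Mcm2 and Ccne2. E2f1 was at 9.81, 15.5 and 7.99 TPM in the controls and 18.2, 20.7 and 10.3 TPM in the knockouts, a difference of 0.52 (SE 0.31, adjusted p = 0.326), with overlapping groups. By role the largest median difference was that of the G1/S regulators (0.91) and the nucleotide supply genes (0.85), and the smallest that of the polymerases and primase (0.12). No difference between roles was tested.

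Markers of other cells moved with the genotype in both directions. The 7 pan-leukocyte markers summed to 1500 to 1937 TPM in the controls and 2622 to 2983 TPM in the knockouts, and 3 of the 7 rose. The 13 alveolar macrophage markers summed to 1669 to 1931 TPM and 4081 to 14015 TPM, with 5 higher and 3 lower of 13. Ptprc itself was at 83.5 ± 3.55 TPM and 88.1 ± 7.91 TPM (SD, n = 3). The 8 AT2 markers summed to 46051 to 53024 TPM in the controls and 27550 to 35603 TPM in the knockouts, and 2 of the 8 fell. The 4 club cell markers summed to 151097 to 174633 TPM and 69996 to 86702 TPM, with 3 of 4 lower, and the 6 ciliated cell markers to 717 to 752 TPM and 306 to 379 TPM, with 5 of 6 lower. The 7 T and NK cell markers summed to 133 to 185 TPM and 73.9 to 107 TPM, with 2 of the 6 tested lower, and 0 of 4 B cell and 0 of 5 neutrophil markers passed. Since TPM share a fixed total, a loss of abundant RNA raises the TPM of all other genes, and a gain lowers them. The part of these shifts in the replication gene values was not tested. Without knockout 3, the library with the most erythrocyte RNA, 2 members rose and the members' median was 0.66. In that fit 7.28% of all genes rose, and the median over all genes was 0.007, against -0.14 in the fit as reported. Of the other lists, 1 of 48 replication genes rose (Rnaseh2b, a ribonuclease H2 subunit, 0.75, adjusted p = 0.0243) and 1 fell (Rrm2b, the p53-induced reductase subunit, -0.77, adjusted p = 0.0441). Cks1b, a kinase partner, rose by 1.22 (adjusted p = 0.0375) among 23 regulators, and Ccnb1, a mitotic cyclin, by 1.29 (adjusted p = 0.0411) among 25 mitosis genes. Of all genes tested, 3.16% rose. Mki67 and Top2a had differences of 0.68 and 0.72 (adjusted p = 0.311 and 0.256), and Cdkn1a of 0.35 (adjusted p = 0.319).

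In whole lungs at 6 months, Orc1, Cdc6 and Mcm10 were below 1 TPM in most libraries and were not tested, with means of 0.164, 0.771 and 0.689 TPM in the controls and 0.278, 0.892 and 0.780 TPM in the knockouts. Of the 32 tested, 7 rose and 0 fell, against 15.9% of the 14177 genes tested that rose and 13.9% that fell, a share near that of all genes. There were 25 positive and 7 negative differences, from -0.21 to 0.69, with a median of 0.19 against a median near 0 over all genes. The 35 genes summed to 355, 349, 360 and 441 TPM in the controls and 426, 426, 452 and 457 TPM in the knockouts, a ratio of means of 1.17, and control 4 lay inside the knockout range. Without control 4, 11 members rose (16.1% of all genes), and 4 rose without control 2 (13.0%) or without control 3 (14.8%).

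Pcna was at 110.5, 116, 117 and 127 TPM in the controls and 151, 151, 143 and 151 TPM in the knockouts, a difference of 0.34 (SE 0.05, adjusted p = 0.000669). Tk1 was at 3.80, 3.96, 3.53 and 5.01 TPM in the controls and 7.32, 6.57, 7.98 and 5.65 TPM in the knockouts, a difference of 0.63 (SE 0.13, adjusted p = 0.00337). Gins2 was at 3.68, 2.20, 2.91 and 3.33 TPM in the controls and 5.11, 4.00, 6.53 and 6.54 TPM in the knockouts, a difference of 0.69 (SE 0.17, adjusted p = 0.00844). In these 3 genes every knockout was above every control. Chaf1b, the histone chaperone subunit that did not pass in AT2 cells, was at 3.64, 1.92, 2.53 and 4.13 TPM in the controls and 5.18, 4.37, 6.04 and 4.33 TPM in the knockouts, a difference of 0.59 (SE 0.18, adjusted p = 0.031). These 4 were the members without overlap, against 16.4% of all genes tested. Cdt1, the licensing factor, was at 5.54, 4.63, 5.50 and 8.09 TPM in the controls and 7.72, 9.46, 9.51 and 11.0 TPM in the knockouts, a difference of 0.60 (SE 0.15, adjusted p = 0.0117), with control 4 above knockout 1. Cdt1, Gins2, Pcna and Tk1 passed in every fit without 1 library and under every other setting in which they were tested. With the filter at 5 TPM, Gins2 was not tested.

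E2f1 was at 7.66, 6.32, 6.92 and 6.81 TPM in the controls and 11.7, 8.72, 10.7 and 7.57 TPM in the knockouts, a difference of 0.42 (SE 0.13, adjusted p = 0.0316), with knockout 4 just below control 1. Gins1, which holds the let-7 7mer shown above, was at 3.19, 1.37, 2.42 and 3.17 TPM in the controls and 2.82, 4.87, 5.24 and 5.47 TPM in the knockouts, a difference of 0.67 (SE 0.22, adjusted p = 0.0385), with knockout 1 among the controls. Both, like Chaf1b, lost the call without control 2, control 3 or knockout 3, and each also without further libraries. Rrm2 was at 5.62, 4.52, 4.61 and 9.95 TPM in the controls and 7.38, 8.79, 8.62 and 9.54 TPM in the knockouts, a difference of 0.47 (SE 0.20, adjusted p = 0.0973). Ccne1 was at 0.848, 0.633, 0.392 and 2.97 TPM in the controls and 1.42, 2.25, 2.01 and 2.88 TPM in the knockouts, a difference of 0.62 (SE 0.29, adjusted p = 0.146). In both, control 4 was the highest library of the table, and without it the adjusted p was 0.00202 for Rrm2 and 0.005 for Ccne1. Mcm2 was at 9.41, 8.19, 9.50 and 11.5 TPM in the controls and 11.2, 10.1, 11.4 and 9.74 TPM in the knockouts, a difference of 0.13 (SE 0.11, adjusted p = 0.411). Ccne2 was at 0.937, 1.32, 1.33 and 1.70 TPM in the controls and 1.69, 1.74, 2.74 and 1.55 TPM in the knockouts, a difference of 0.33 (SE 0.16, adjusted p = 0.163). Rfc4 was at 7.46, 5.23, 5.87 and 11.0 TPM in the controls and 8.71, 8.53, 10.5 and 10.8 TPM in the knockouts, a difference of 0.38 (SE 0.18, adjusted p = 0.152). Groups overlapped in these 3 genes. The 6 Mcm genes tested had differences from -0.04 to 0.23, and none passed, while the unadjusted p was under 0.05 for 9 of the 32 members, against 20.7% of all genes.

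At this time the 7 pan-leukocyte markers summed to 1083 to 1386 TPM in the controls and 2779 to 3177 TPM in the knockouts, with 5 of 7 higher. The 13 alveolar macrophage markers summed to 827 to 1134 TPM and 4950 to 8594 TPM, with 8 higher and 3 lower. Ptprc was at 59.7 ± 12.2 TPM and 86.2 ± 16.7 TPM (SD, n = 4), and the 8 AT2 markers at 28100 to 30093 TPM and 38199 to 46387 TPM, with 5 higher. Lower in the knockouts were 6 of 6 ciliated, 6 of 7 endothelial, 3 of 4 club and 3 of 6 tested T and NK cell markers, and the club cell markers summed to 173859 to 217315 TPM in the controls and 97458 to 112014 TPM in the knockouts. The part of these shifts in the 7 calls was not tested. Of 43 other replication genes tested, 4 rose and 0 fell, with Rnaseh2b at 0.72 (adjusted p = 7.9e-05) and Pole3, an accessory subunit of polymerase epsilon, at 0.31 (adjusted p = 0.0104). Of 22 regulators, Cdkn1c, a cyclin kinase inhibitor, rose by 1.36 (adjusted p = 0.000218) and Cks1b by 0.48 (adjusted p = 0.0125). Of 22 mitosis genes, only the checkpoint kinase gene Bub1b passed, at 0.75 (adjusted p = 0.00679). In each of these lists the share that rose was below the 15.9% of all genes tested. Mki67 and Top2a had differences of 0.24 and 0.23 (adjusted p = 0.458 and 0.481), and Cdkn1a of -0.14 (adjusted p = 0.412).

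**Figure D3:**
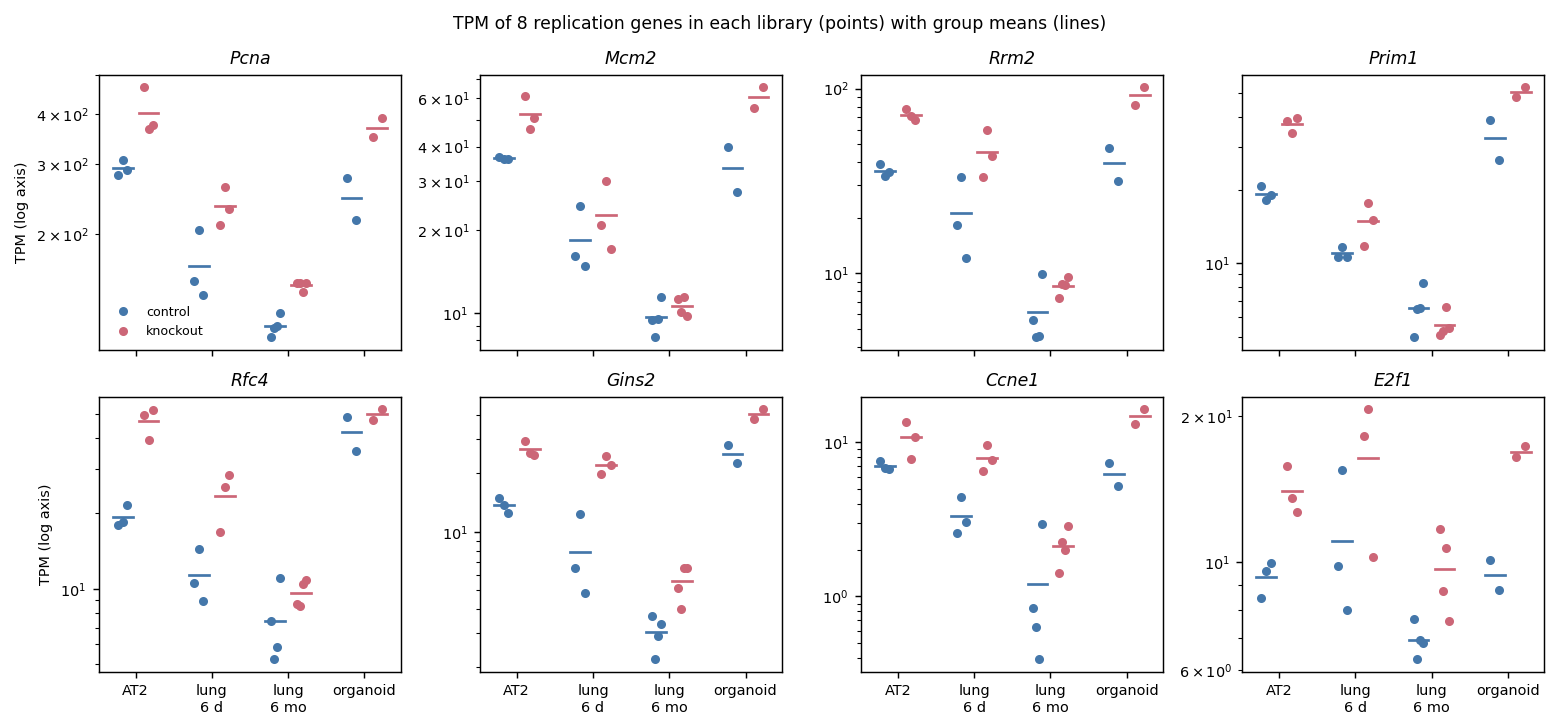
TPM on log axes (y) of 8 replication genes in each library (points) with group means (lines), controls in blue and knockouts in red, for the 4 kinds of sample (x). The knockout points of Prim1, Rfc4 and Rrm2 stand clear of the controls in AT2 cells, control 2 reaches the knockouts of several genes in lungs at 6 days, and control 4 does so in lungs at 6 months.

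In organoids 0 of the 35 genes passed, with adjusted p from 0.0673 to 0.724, and 0.218% of the 12406 genes tested rose and 0.387% fell. With 2 libraries a genotype, unadjusted p was under 0.05 in the direction of the knockout for 30 of the 35 members, against 19.7% of all genes. All 35 passed the filter. All 35 differences were positive, from 0.09 to 1.21, with a median of 0.78, where all genes had a median of 0.06 and 54.9% were positive. Both knockouts lay above both controls for all except Pold1, Rfc4 and Hells, that is 32 of 35, against 39.6% of all genes tested. The sums over the 35 genes were 1378 and 974 TPM in the controls and 1789 and 2130 TPM in the knockouts, a ratio of means of 1.67.

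E2f1 had the lowest adjusted p. It was at 10.1 and 8.76 TPM in the controls and 16.5 and 17.3 TPM in the knockouts, a difference of 0.78 (SE 0.13, adjusted p = 0.0673). Ccne1 was at 7.34 and 5.21 TPM in the controls and 13.1 and 16.4 TPM in the knockouts, a difference of 1.12 (SE 0.21, adjusted p = 0.0701). Rrm2 was at 47.8 and 31.6 TPM in the controls and 81.6 and 102 TPM in the knockouts, a difference of 1.21 (SE 0.24, adjusted p = 0.0706), the largest of the 35. The chaperone subunit gene Chaf1b was close behind in adjusted p. It was at 19.9 and 15.7 TPM in the controls and 28.9 and 32.0 TPM in the knockouts, a difference of 0.75 (SE 0.16, adjusted p = 0.0714). In each of the 4 genes both knockouts were above both controls, with control 1 the higher control. Pcna was at 276 and 217 TPM in the controls and 349 and 390.4 TPM in the knockouts, a difference of 0.59 (SE 0.16, adjusted p = 0.0898). Mcm2 was at 39.9 and 27.3 TPM in the controls and 55.2 and 65.6 TPM in the knockouts, a difference of 0.85 (SE 0.22, adjusted p = 0.0838). Ccne2 was at 13.9 and 8.95 TPM in the controls and 22.9 and 25.8 TPM in the knockouts, a difference of 1.05 (SE 0.23, adjusted p = 0.0733). None of these overlapped between genotypes. All 7 Mcm genes had differences between 0.75 and 1.13. Hells, by contrast, was at 30.2 and 25.2 TPM in the controls and 26.1 and 33.5 TPM in the knockouts, with one knockout between the controls and a difference of 0.09 (SE 0.18, adjusted p = 0.724). Without control 1, 34 members passed, but so did 54.5% of all genes (30.7% higher), and without control 2, 18 passed, beside 27.1% of all genes (12.8% higher). There the lone control is assumed to vary like the knockouts. Without either knockout 0 members and 0 of all genes passed.

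The organoid controls differed in cell markers. The 4 basal cell genes (Krt5, Trp63, Krt14 and Krt17) summed to 921 and 1866 TPM in the controls and 68.6 and 71.8 TPM in the knockouts, and 3 of the 4 fell. The 8 AT2 markers summed to 44535 and 14177 TPM in the controls and 78376 and 71503 TPM in the knockouts, with 0 of 8 passing. Control 2, with the lower AT2 sum, had the lower level of every replication gene except Dut. The part of this makeup in the replication gene values was not tested. Leukocyte RNA was near 0: the 7 pan-leukocyte markers summed to 1.79 and 1.14 TPM in the controls and 4.83 and 4.12 TPM in the knockouts, Tyrobp and Chil3 were listed at 0 in both controls, and Ptprc was below 0.3 TPM in all 4 libraries.

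Of the other lists in organoids, 0 of 49 replication genes, 0 of 23 regulators and 0 of 25 mitosis genes passed, while 45, 17 and 25 were positive, with medians of 0.55, 0.48 and 0.75. The lowest adjusted p among the replication genes was that of Asf1b, a histone chaperone, at 1.07 (adjusted p = 0.0649), and among the regulators that of the repressor E2f7 at 1.22 (adjusted p = 0.0675). Mki67 and Top2a had differences of 0.59 and 0.62 (adjusted p = 0.133 and 0.116), and Cdkn1a of 0.33 (adjusted p = 0.331).

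**Figure D4:**
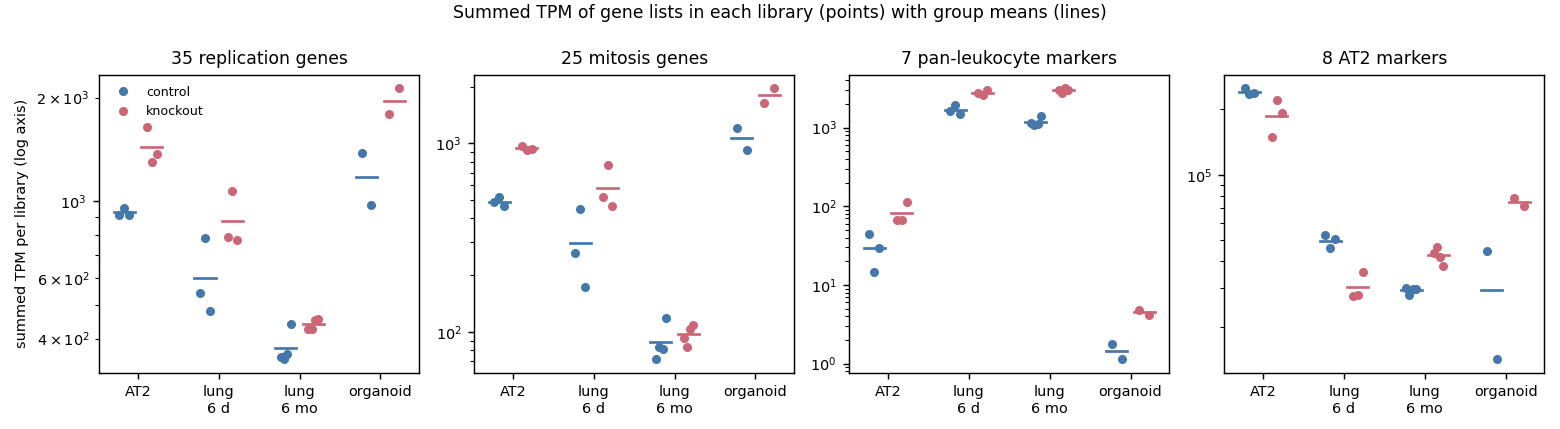
Summed TPM per library on log axes (y; points, with group means as lines) of the 35 replication genes, 25 mitosis genes, 7 pan-leukocyte markers and 8 AT2 markers in the 4 kinds of sample (x). The replication sums are higher in the knockout means of all 4, and the pan-leukocyte sums are 4.83 TPM or less in organoids while they are at least 1083 TPM in lungs.

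Whether the knockout effect differed between kinds of sample was tested on the difference of the separate effects, with the spread of each table kept apart. The effect in lungs at 6 days was larger than at 6 months for 30 of 32 genes, but the difference passed for 0 of 32, against 2.73% of 13875 genes tested. The lowest adjusted p was 0.214, and unadjusted p was under 0.05 for 4 members, against 14.6% of all genes. Over all genes tested the median difference was -0.16, and it was -0.02 with median-ratio scaling. For Prim1 the difference was 0.58 (95% interval 0.08 to 1.08) and for Gins2 0.77 (0.04 to 1.499), so both intervals began near 0 and reached above 1. Between AT2 cells and lungs at 6 days 0 of 35 differences passed, against 1.06% of 11766 genes tested, with 1 member, Prim1, at an unadjusted p under 0.05 (difference 0.53, interval 0.07 to 0.98). For Pcna that difference was -0.06 (interval -0.50 to 0.38) and for Rrm2 -0.14 (-0.96 to 0.68).

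Between organoids and AT2 cells, 1 of the 35 differences passed, that of Rfc4, against 9.29% of 11351 genes tested. Rfc4 was at 48.6 and 35.6 TPM in the controls and 47.2 and 52.1 TPM in the knockouts in organoids, so that its organoid controls stood at the level of the AT2 knockouts; levels from separately made tables are set side by side here only as a description. Its difference between genotypes was 0.25 (SE 0.18, adjusted p = 0.37) in organoids and 1.23 in AT2 cells, and the difference of the effects was -0.98 (SE 0.22, 95% interval -1.49 to -0.47, adjusted p = 0.0336). Without either organoid knockout the call was lost, with adjusted p of 0.379 and 0.355. Hells came next, with -0.63 (interval -1.12 to -0.13, adjusted p = 0.098). The differences of the other members ran from -0.46 to 0.68 and did not pass, and 24 of all 35 were positive. Over all genes tested the median difference was -0.0032.

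**Figure D5:**
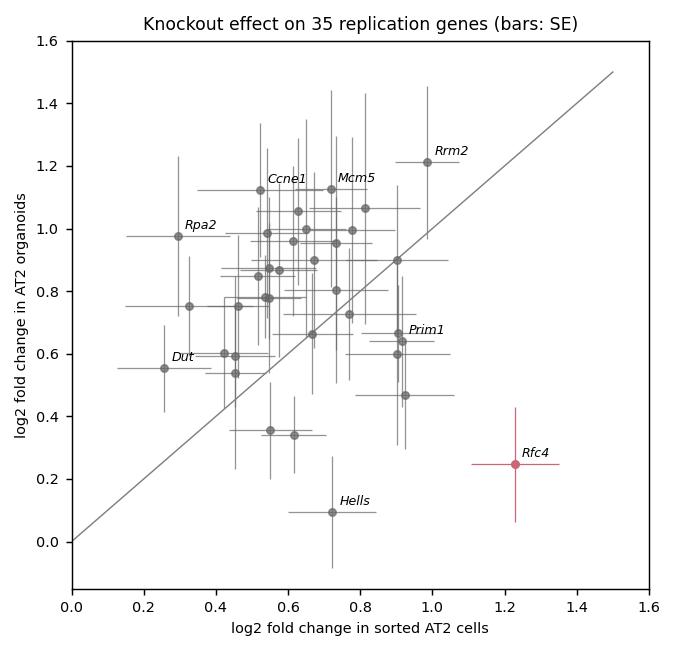
Log2 fold change, knockout minus control, of each of the 35 genes in sorted AT2 cells (x axis) and in AT2 organoids (y axis), with bars for the SE and a line of equal effects. Rfc4, in red, lies at 1.23 and 0.25 and is the gene whose difference passed, while Hells lies at 0.72 and 0.09.

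By role, 3 comparisons gave calls, listed here as sorted cells, then the earlier lungs, then the later lungs. Of the Mcm genes, Mcm10 included, 7 of 7, 0 of 7 and 0 of 6 tested passed. Mcm10 was the one left untested in the later lungs. The helicase partners passed in 3, 1 and 2 of 3 genes, and the nucleotide genes in 4, 0 and 1 of 5. The shares of all tested genes that rose were 6.62%, 3.16% and 15.9%, in the same order. Gins2 was the member called in AT2 cells and in lungs at both times. Ccne1 passed in lungs at 6 days and not in AT2 cells (adjusted p = 0.104), and no difference of effects passed for it.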

How the data were processed

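Per the labels' protocols, nonstranded poly(A) libraries (TruSeq) were made from sorted AT2 cells, whole lungs and organoids. The authors deposited 1 table of TPM values for each kind of sample, with gene symbols as rows. The submitters' processing notes name GRCm38. How reads were aligned and transcripts quantified, and with which annotation, is not given in the sources used here. Of rows that shared a symbol, the one with the higher mean was kept.

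For each table, genotype effects on log2(TPM + 1) were estimated with limma (version 3.58.1, R 4.3.3) with no other term. Variances were moderated by empirical Bayes with a mean trend, tests were two-sided, and p-values were adjusted by the Benjamini-Hochberg method. Genes entered the test with 1 TPM or more in a number of libraries equal to the smaller group, and were called below an adjusted p of 0.05. SE are from the moderated variances. Differences of effects between tables were divided by the root of the summed squared SE and referred to a t distribution with Welch-Satterthwaite degrees of freedom, with adjustment over all genes tested in both. The fits were checked on simulated data drawn with the moderated spread of each gene. Such data take over the spreads that limma itself estimates, so the check cannot show that those spreads are right. Drawn with unmoderated spreads, which an earlier form of the check used, none of the changed genes was recovered in the organoid design.

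The members, the lists and the tests were chosen with earlier results of these data known. Values in every library were given for up to 10 called members per comparison with the smallest adjusted p (the 4 smallest where fewer than 4 were called), for Pcna, Mcm2, Rrm2, Ccne1, Ccne2 and E2f1 throughout, and for members called in a difference. From the other lists at most 4 genes per comparison were named by adjusted p, and Mki67, Top2a and Cdkn1a throughout. Hells in organoids, the single values that name the ends of a range, and the marker genes Ptprc, Chil3 and Tyrobp were picked once their values had been seen. The alternative settings used 0.1 as pseudocount, other filters (none, 5 TPM, or 1 TPM on the mean), median-ratio or quantile scaling, constant instead of trended prior variances, array weights, a replicate block, a shared spread for the differences, and 1 library fewer, where the genes tested were kept.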

Additional observations from a re-analysis of the deposited data

Results flagged for a closer look

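Among the 4 control or 4 knockout lungs at 6 months, 1 library stood far from the other 3 in 6 of 70 groups of member values, and chance alone flags about 1 in 20 groups. Control 4 was high for Hells, at 4.07 TPM against 1.46 to 1.88 TPM in the other controls, and for Uhrf1, at 6.63 TPM against 2.68 to 3.04 TPM. The same library held 441 TPM summed over the 35 genes, against 349 to 359.6 TPM. Knockout 3 was high for Ccne2, at 2.74 TPM against 1.55 to 1.74 TPM, and for Lig1, at 11.9 TPM against 8.55 to 8.80 TPM, and low for Pcna, at 142.9 TPM against 150.8 to 151.2 TPM. Knockout 4 was high for Mcm5, at 10.2 TPM against 8.10 to 8.42 TPM.

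Of the summed marker lists, 3 stood out in the same way. The AT2 markers summed to 28100 TPM in control 2 against 29883 to 30093 TPM in the other controls. The ciliated cell markers summed to 892.5 TPM in control 4 against 989 to 1001 TPM. The erythrocyte markers summed to 10988 TPM in knockout 3 against 5315 to 6254 TPM in the other knockouts.

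One member differed in its knockout effect between organoids and AT2 cells by a test of the difference: Rfc4, with -0.98 on the log2 scale (adjusted p = 0.0336, limma effects with separate spreads). Of all 11351 genes tested, 9.29% passed. With the replicate number as a block the call of Rfc4 was lost (adjusted p = 0.0516).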

How the results depend on the processing

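The AT2 count was 17 without the filter (1.88% of all genes rose, against 6.62% as reported) and 9 to 31 without 1 library (1.51% to 7.71%). In lungs at 6 days the count was 1 without the filter, beside 2.08% of all genes that rose (3.16% as reported). Under median-ratio scaling and quantile normalization it was 4 and 4, beside 6.68% and 6.45%. With library weights it was 35 (27.3%), and it was 0 to 3 without 1 library (0.311% to 7.28%). The weights did not converge there, with 34.7 for knockout 2 and 0.0752 for knockout 3, and 59.3% of all genes were called. In lungs at 6 months the count was 4 without the filter (12.1%, against 15.9% as reported). With the filter at 5 TPM it was 4 (17.6%), namely Cdt1, E2f1, Pcna and Tk1, while Chaf1b, Gins1 and Gins2 were not tested. The count was 4 to 11 without 1 library (13.0% to 16.1%). In organoids it was 0 to 34 without 1 library (0% to 54.5% of all genes) and 0 in every other setting. For the differences of effects, library weights gave 28 calls between the lung times (28.8% of all genes) and 9 between AT2 cells and lungs at 6 days (21.4%, near the members' share), where E2f1 (-0.49, adjusted p = 0.0484) and Mcm5 (-0.61, adjusted p = 0.0198) turned negative. Between organoids and AT2 cells, 0 to 18 passed without 1 library: 18 without organoid control 1 (42.6% of all genes) and 4 without control 2 (19.2%). Apart from the weights and the libraries left out, where the construction changed, the cause was not tested. Sign changes of members that passed neither in the comparison as reported nor in the setting that changed the sign, in 3 members of the 6-day lungs, 6 of the 6-month lungs and 1 of the organoids, were not counted as reversals. The 3 of the 6-day lungs passed with library weights. Among all genes called, quantile normalization moved the share that rose from 53.5% to 42.5% in lungs at 6 months and from 36.0% to 46.8% in organoids. TPM keep no reads, so what depth limits could not be measured.

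With the replicate number as a block, 25 members rose in AT2 cells (24 of them among the 29), beside 5.18% of all genes. In lungs at the earlier and later time 4 and 9 rose, beside 2.51% and 16.8%, and in organoids 0, beside 0.983%. The differences of effects gave 0, 0 and 0 calls, beside 2.03%, 0.773% and 6.43% of all genes, so that Rfc4 was lost (adjusted p = 0.0516). Same-numbered libraries of the 2 genotypes were not taken as pairs, since not every correlation was over 0.1: the correlations of their deviations from the group means ran from -0.173 to 0.172 for AT2 cells, from -0.154 to 0.005 for the 6-day lungs and from 0.08 to 0.217 for the 6-month lungs, and were -0.074 for organoids. In lungs at 6 months each library correlated best with its own number, a hint from the data and not the design.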
